A study of Mus musculus with 18 samples.

Results

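Granins and the enzymes that mature neuropeptides were examined in mouse brain RNA pulled down with a tagged poly(A)-binding protein and in RNA of the whole brain. The group was chosen by gene symbol: chromogranins A and B (Chga, Chgb), secretogranins II and III (Scg2, Scg3), the secretogranin V chaperone 7B2 (Scg5), the granin-like precursor VGF (Vgf), proprotein convertases 1 and 2 (Pcsk1, Pcsk2), carboxypeptidase E (Cpe) and the peptide-amidating enzyme (Pam). Every probe set annotated to exactly 1 of these 10 symbols was taken, which gave 10 probe sets for 9 genes among 45037 tested probe sets. Cpe had 2 probe sets and 8 genes had 1 each. Pcsk2 had no probe set annotated to it alone and was not analysed here.

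All mice carried a bacterial artificial chromosome (BAC) in which the coding part of the orexin gene was replaced by a flag-tagged rat poly(A)-binding protein 1 cDNA followed by eGFP. The background was C57BL/6J X DBA/2J and the age is given as 11 and 14 weeks, without saying which sample had which. The first group (IP, 9 arrays) held messenger RNA recovered with anti-flag beads from formaldehyde-fixed brain. The other (WB, 9 arrays) held total RNA of the whole brain of the same kind of transgenic mouse. The labels do not state separately whether the WB RNA was also taken from fixed tissue. The comparison asks which transcripts were relatively more or less abundant in the immunoprecipitate. The BAC places the tag under orexin regulatory sequence. The sources used here do not give the number of founder lines. They also do not state that arrays stand for separate animals, so each p-value reflects only how much these samples varied, and some of that variation may be technical.

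Granins are acidic proteins that aggregate in the trans-Golgi network of neurons and endocrine cells, help to form dense-core vesicles, and are themselves cut into peptides. Within these vesicles the convertases PC1 and PC2 cleave precursors at pairs of basic residues, carboxypeptidase E removes the basic residues left at the new end, and the amidating enzyme turns a terminal glycine into an amide. Peptidergic neurons such as the orexin neurons of the lateral hypothalamus depend on this pathway, but most of its genes are active in many neurons of the brain.

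Several granin genes are known as targets of cAMP signalling, which acts through the palindromic element TGACGTCA in promoters. This element was searched on both strands in RefSeq promoters (GRCm38.p6) of 250 bases before to 50 after a gene's start. Of the 10 genes, 8 had a promoter in the table (Vgf and Cpe did not), and 3 of these 8 genes held the element, against 2.03% of the 27025 genes in the table. The 3 are shown with the element in capitals, because they let the values below be read by promoter element. It began 68 bases before the start in Scg2 (chr1:79440076-79440105, minus strand), 72 in Chgb (chr2:132781559-132781588, plus strand) and 78 in Pcsk1 (chr13:75089768-75089797, plus strand). The gene annotation lists an earlier start for Pcsk1 (chr13:75089420), so this window lies inside the annotated gene. Its 78 bases are counted from the start used for its promoter.
Scg2: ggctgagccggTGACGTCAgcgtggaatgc
Chgb: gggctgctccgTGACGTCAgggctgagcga
Pcsk1: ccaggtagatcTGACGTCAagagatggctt
The shorter core TGACG, which the full element contains, lay on at least 1 strand in 7 of the 8 genes, all but Pam, and in 23.0% of all genes in the table. A match describes the letters of this window and is not a measured binding site.

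The arrays differed between the groups across the whole genome, and this bears on each value. On the deposited scale the median difference over all tested probe sets was -0.23 (IP minus WB, log2 of intensity plus 16). It was 0.11 after quantile normalization, 0.20 after median centring and -1.17 when arrays were scaled on their hybridization controls, foreign transcripts added before hybridization. Those controls averaged from 14.5 to 15.3 (log2) on IP replicates 2, 5, 6 and 8, from 13.7 to 13.9 on the other 5 IP arrays and from 13.1 to 13.5 on the WB arrays. The log2 ratio of the 3′ over the 5′ control probe set for Gapdh was 4.13 ± 0.66 in IP and 1.56 ± 0.15 in WB (mean ± SD, n = 9 each, adjusted p = 0.000103 by exact two-sided permutation), while that for Actb was -0.35 ± 0.44 and -0.17 ± 0.08 (adjusted p = 0.277). The position of the member probe sets along their transcripts was not used here, and the part of these measures in the results was not tested. The mean log2 level of markers was lower in IP for microglia (-0.95), endothelium (-0.80) and red blood cells (-2.85), each with an adjusted p of 0.000103 by exact permutation over 10 measures. By gene, 4 of 6 microglial markers fell and 1 rose, 4 of 6 endothelial markers fell, and 3 of 4 measured red blood cell genes fell. Neuronal markers (6 genes) differed by -0.15 (adjusted p = 0.179), astrocyte markers (6 genes) by 0.19 (adjusted p = 0.179) and oligodendrocyte markers (5 measured genes) by 0.096 (adjusted p = 0.277), by the same exact test. These small means held genes moving both ways: 4 neuronal markers rose and 2 fell, 3 astrocyte markers rose and 2 fell, and 2 oligodendrocyte markers rose and 2 fell (limma). Over all tested probe sets limma called 14.2% higher and 30.8% lower, and over all genes by their brightest probe set 21.7% each way. The marker counts were not tested against these shares. Hcrt, the orexin gene itself, differed by 0.21 (limma adjusted p = 0.568), so the defining marker of the targeted cells did not pass the test. Pituitary hormone genes, which would mark another granin-rich tissue, averaged from 6.38 to 8.86 in IP and from 6.68 to 9.86 in WB (difference -0.53, adjusted p = 0.277 by the exact test).

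The group did not move as a block. On the deposited scale 3 of the 10 probe sets were higher in IP, those of Vgf and both of Cpe, and 3 were lower, those of Scg5, Pcsk1 and Chga (limma, adjusted p 0.05 over all 45037 probe sets). Over all tested probe sets 14.2% were called higher and 30.8% lower, 45% in either direction. The members' counts were also 3 and 3 with 1 added before the log, where 14% of all probe sets were higher and 30.6% lower, and with 64 added, where 14.5% were higher and 30.6% lower. Chgb, Scg2, Scg3 and Pam did not pass. The median difference of the 10 was 0.10 against -0.23 over all probe sets. Over all genes taken by their brightest probe set it was 0.00, with 21.7% higher and 21.7% lower. With a change of at least 2-fold required, 2 were higher and 2 lower, against 7.72% and 21.9% of all probe sets. The 9 IP and 9 WB arrays did not overlap for 2 higher and 1 lower member, against 5.22% and 10.3% of all probe sets. IP is a pulled-down part of brain RNA, so an IP minus WB difference does not count cells. In such bulk samples the cells of origin, the RNA per cell and the recovery on the beads cannot be told apart.

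**Figure D1:**
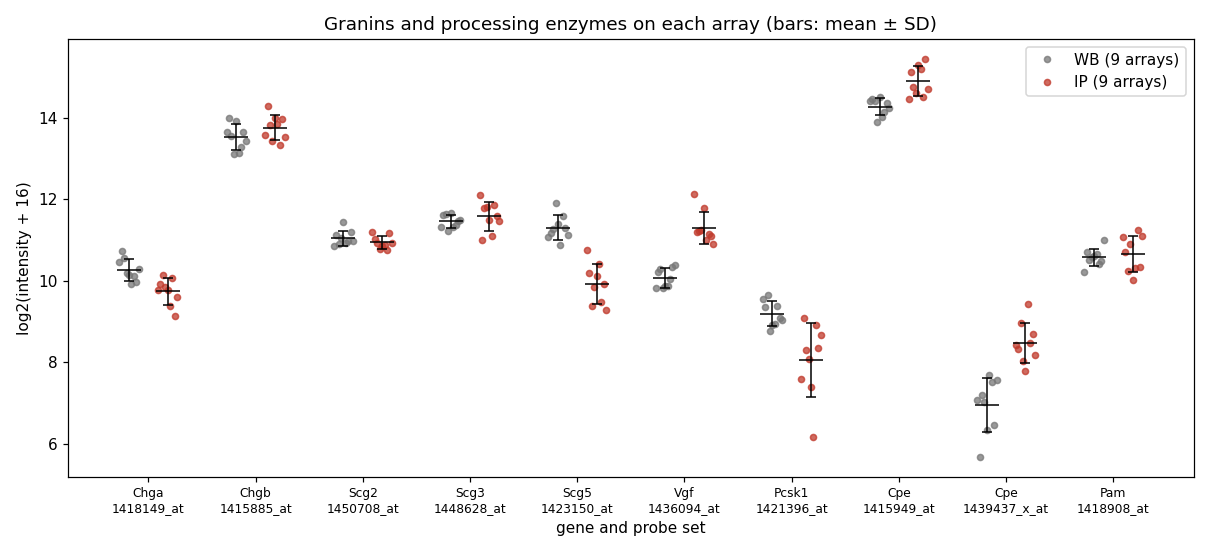
Each point is 1 array, with log2(intensity + 16) on the vertical axis for the 10 probe sets, WB in grey and IP in red, and black bars give the mean ± SD of 9 arrays. The groups separate fully for Vgf, Scg5 and probe set 1439437_x_at of Cpe, and levels of different probe sets should not be set against each other.

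Vgf, the precursor of several secreted peptides that act on energy balance and synaptic plasticity, rose in IP. The intensity of its probe set 1436094_at ran from 881 over a median of 1035 to 1331 in WB, and from 1907 over 2341 to 4435 in IP. Every IP array was therefore above every WB array, with IP replicate 1 highest and IP replicate 9 lowest in its group. The difference was 1.23 (SE 0.16, 95% confidence interval 0.91 to 1.56, limma adjusted p = 6.3e-07), a fold of 2.35 on this scale. Of all tested probe sets 5.18% had a larger rise. Quantile normalization gave a rise of 1.20 and median centring one of 1.66. Leaving out IP replicates 2, 5, 6 and 8 together gave 1.25. With scaling on the hybridization controls it was 0.29 (adjusted p = 0.297), which did not pass.

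The chromogranins and secretogranins that build the vesicle core showed small differences or a fall. Chga, which drives granule formation and is the source of vasostatin, pancreastatin and catestatin, had intensities from 952 over 1151 to 1671 in WB and from 546 over 863 to 1114 in IP. All 9 IP arrays lay below the WB median and 7 below every WB array. Chga fell by 0.53 (SE 0.16, limma adjusted p = 0.00768), or 1.44-fold. Without the 4 IP arrays with bright controls the difference was -0.38 (adjusted p = 0.0463), and it did not pass with median centring (-0.10, adjusted p = 0.623).

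Chgb, the second chromogranin of the vesicle core, ranged from 8896 over 12016.5 to 16205 in WB and from 10235 over 14469 to 19918.5 in IP. The groups overlapped widely, with 6 of 9 IP arrays above the WB median. Its difference of 0.23 (SE 0.14, confidence interval -0.07 to 0.52, limma adjusted p = 0.207) did not pass, and its sign turned with the scaling, at -0.82 with quantile normalization and -0.72 with hybridization controls, both past the threshold (adjusted p = 1.32e-08 and 5.51e-05), and 0.65 with median centring (adjusted p = 0.00557). No direction can be given for Chgb without fixing a scaling.

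Scg2, the precursor of secretoneurin, was the steadiest member among the IP arrays. Intensities ran from 1828 over 1986 to 2773 in WB and from 1716 over 1933 to 2324 in IP. The difference was -0.10 (SE 0.11, confidence interval -0.34 to 0.13, limma adjusted p = 0.494). It passed as lower with quantile normalization (-0.26, adjusted p = 0.0358) and with hybridization controls (-1.05, adjusted p = 0.000117), and its sign turned with median centring (0.32, adjusted p = 0.0559). The SD of Scg2 was 0.16 in IP and 0.19 in WB, where the median SD of all probe sets was 0.74 in IP and 0.34 in WB. Those probe sets were not matched to Scg2 in brightness.

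Scg3, which tethers chromogranin A to the cholesterol-rich vesicle membrane, ranged from 2366 over 2830.2 to 3235 in WB and from 2032 over 3061 to 4366 in IP. The IP arrays spread to both sides, 4 above and 2 below all WB arrays. The difference was 0.12 (SE 0.14, confidence interval -0.16 to 0.41, limma adjusted p = 0.499). Without the 4 IP arrays with bright controls Scg3 passed as higher (0.35, adjusted p = 0.018), as it did with median centring (0.55, adjusted p = 0.00436). With quantile normalization its sign turned (-0.19, adjusted p = 0.227), and with hybridization controls it passed as lower (-0.82, adjusted p = 0.00619).

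The group's largest fall on the deposited scale was in Scg5, which encodes 7B2, a chaperone that PC2 needs to become active. Its intensity was 1853 at the lowest, 2462 at the median and 3805 at the highest in WB, against 604, 945 and 1699 in IP. All 9 IP arrays were below all 9 WB arrays. Scg5 fell by 1.37 (SE 0.18, confidence interval -1.75 to -0.99, limma adjusted p = 1.29e-06), or 2.59-fold. It was lower under each of the scalings tried, from -2.31 with hybridization controls to -0.95 with median centring, and passed in each. Of all tested probe sets 13.9% had a larger fall.

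Pcsk1, the convertase PC1 (also called PC3) that makes the first cuts in many precursors, also fell. In WB it ranged from 417 over 525 to 786 and in IP from 55.6 over 299 to 530.5. IP replicate 6 was lowest and IP replicate 2 highest, with 7 of 9 IP arrays below all WB arrays. The difference was -1.13 (SE 0.30, confidence interval -1.74 to -0.52, limma adjusted p = 0.00291), a 2.19-fold fall. The SD of 0.91 in IP, against 0.31 in WB, was the widest among the members. The fall passed under each scaling, from -2.07 with hybridization controls to -0.71 with median centring (adjusted p = 0.0491), and was -0.88 without the 4 IP arrays with bright controls. Of the 3 genes with the full cAMP element, Pcsk1 fell, while Scg2 and Chgb did not pass, so on the deposited scale they did not share a call. With quantile normalization all 3 passed as lower (Pcsk1 -0.77, Scg2 -0.26, Chgb -0.82), where 22% of all probe sets were lower. All 3 also passed as lower with hybridization controls, where 68.4% of all probe sets were lower. With median centring Pcsk1 was lower, Chgb higher (0.65) and Scg2 did not pass. Whether the 3 share a call therefore depends on the scaling.

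Cpe, which trims basic residues after the convertases and also serves as a sorting receptor, was measured by 2 probe sets. On 1415949_at the WB arrays ran from 15151 over 21164.5 to 23117 and the IP arrays from 22687 over 27789 to 44633, and 8 of 9 IP arrays were above all WB arrays. On the deposited scale this probe set rose by 0.63 (SE 0.14, limma adjusted p = 0.000573), or 1.55-fold, but its direction turned with quantile normalization (-0.48, adjusted p = 2.52e-06) and with hybridization controls (-0.31, adjusted p = 0.0303). Without the 4 IP arrays with bright controls the rise was 0.34 (adjusted p = 0.0169). The other probe set, 1439437_x_at, is of a class (_x_at) that can match several genes. Its intensities were 35.4, 119 and 189 in WB (lowest, median, highest) and 205, 325 and 669.6 in IP, without overlap.

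The second Cpe probe set rose by 1.53 (SE 0.29, limma adjusted p = 0.000112), and was higher under each scaling, although it did not pass with hybridization controls (0.59, adjusted p = 0.145). Within each array the ratio of the 2 probe sets changed too: 1439437_x_at rose by 0.90 more than 1415949_at (SE 0.33, p = 0.0143 by exact two-sided permutation of the 48620 divisions of the arrays). The size depended on the value added before the log, at 1.05 with 1 added and 0.59 with 64 added (exact p = 0.043). The 2 probe sets of Cpe therefore gave unequal sizes of change, and only 1439437_x_at kept its sign under every scaling tried.

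Pam, whose product amidates the end of many neuropeptides, showed no difference that passed. It ranged from 1171 over 1515 to 2014 in WB and from 1015 over 1651 to 2412 in IP, and the IP arrays extended beyond the WB arrays on both sides. The difference was 0.085 (SE 0.17, confidence interval -0.26 to 0.43, limma adjusted p = 0.707). A change beyond 1.34-fold upward lay outside the interval on the deposited scale. Pam passed as higher with median centring (0.51, adjusted p = 0.00841) and as lower with hybridization controls (-0.86, adjusted p = 0.00737).

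**Figure D2:**
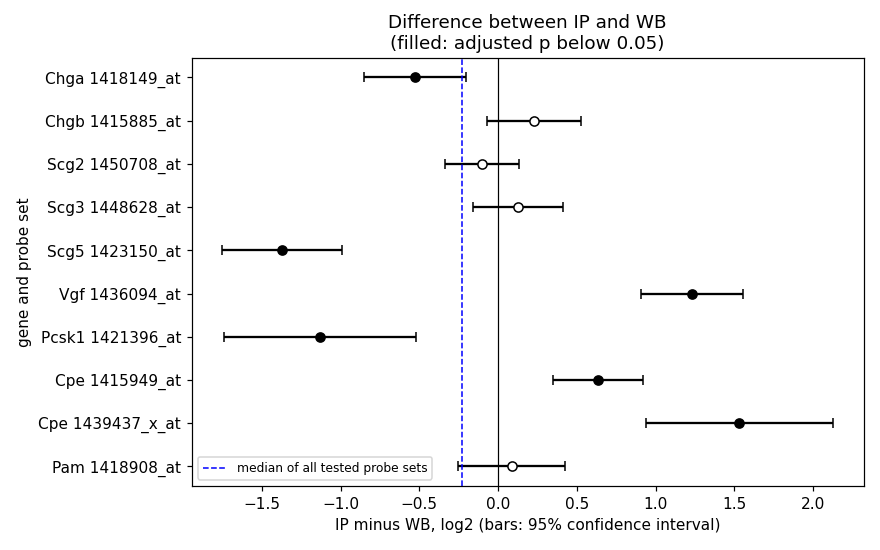
The horizontal axis gives IP minus WB in log2 with its 95% confidence interval for each of the 10 probe sets, filled where the adjusted p is below 0.05, and the dashed line marks the median of all tested probe sets at -0.23. Vgf and the 2 probe sets of Cpe lie to the right of 0, and Scg5, Pcsk1 and Chga to the left.

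**Figure D3:**
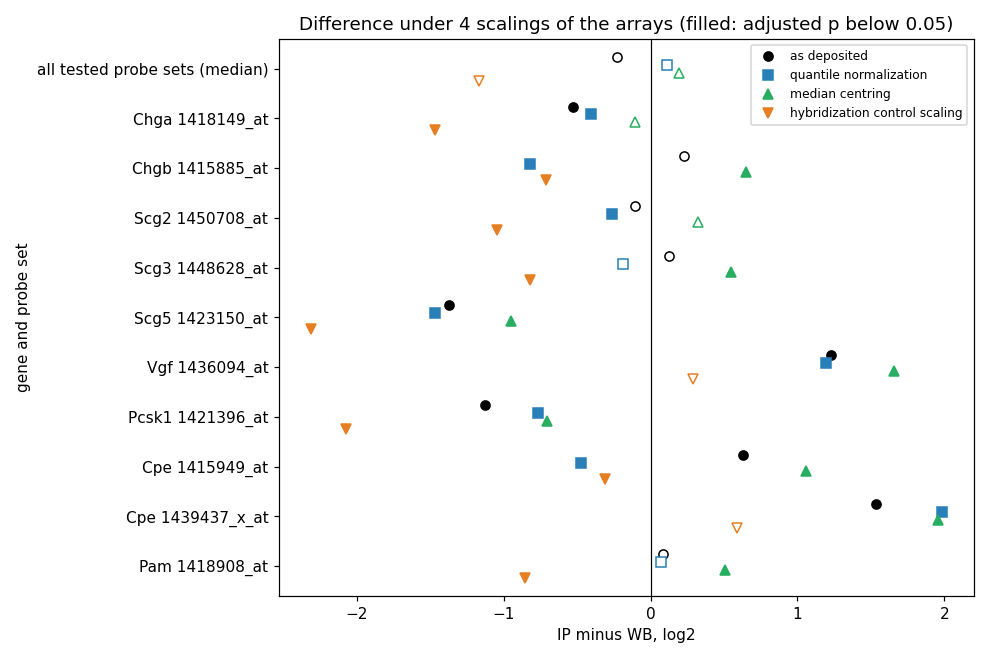
The horizontal axis gives IP minus WB in log2 under the deposited scaling and 3 others, filled where the adjusted p is below 0.05, with the median of all tested probe sets in the top row (no test). Scg5 and Pcsk1 stay below 0 and Vgf and 1439437_x_at of Cpe above 0 under all 4, while Chgb, Scg2, Scg3, Pam and 1415949_at of Cpe appear on both sides.

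With quantile normalization 2 of the 10 probe sets were higher and 6 lower, against 24.1% and 22% of all probe sets. With median centring 6 were higher and 2 lower, against 28.4% and 18.5%. With hybridization controls 0 were higher and 8 lower, against 2.88% and 68.4%. Without the 4 IP arrays with bright controls 4 were higher and 3 lower, against 15% and 29%.

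Members were also compared with each other on the deposited values. The log2 value of 1 gene was subtracted from that of another within each array, using the brighter Cpe probe set. The IP arrays were then compared with the WB arrays by exact two-sided permutation. A multiplicative array scale cancels in such a difference apart from the added 16, and the result shows unequal change, not which gene changed. Quantile normalization does not cancel, and pairs were not tested under it. With it Chgb (-0.82) and Cpe 1415949_at (-0.48) lay below Chga (-0.41) and Scg2 (-0.26), while on the deposited scale they lay above both. Of the 36 pairs of the 9 genes, 27 passed an adjusted p of 0.05 over the 36, and for 12 the groups did not overlap. The shares among pairs of other genes were not computed, and the 36 pairs reuse the same 9 genes. These counts are therefore not shown to be particular to the group. The smallest p that the 48620 divisions can give is 4.11e-05, which is 0.000123 after adjustment here.

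Vgf shifted toward IP relative to each of the 8 other genes. The gap was largest against Scg5. The change of Scg5 minus that of Vgf was -2.60 (SE 0.19, adjusted p = 0.000123 by exact permutation), a ratio 6.08-fold apart, with all 9 IP arrays beyond all WB arrays. Vgf minus Pcsk1 was 2.36 (SE 0.37, adjusted p = 0.000123) and Chga minus Vgf was -1.76 (SE 0.18, adjusted p = 0.000123). Against Cpe it was smallest, at 0.60 (SE 0.21, adjusted p = 0.0102), and it did not pass when the mean of both Cpe probe sets was used (0.15, adjusted p = 0.605).

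Scg5 shifted toward WB relative to 7 of the 8 other genes. Its ratio to Cpe was 4.01-fold lower in IP (SE 0.23 in log2, adjusted p = 0.000123 by exact permutation), Chgb minus Scg5 was 1.60 (SE 0.23, adjusted p = 0.000123) and Chga minus Scg5 was 0.84 (SE 0.26, adjusted p = 0.00895). Against Pcsk1 the difference of -0.24 (SE 0.45, adjusted p = 0.638) did not pass, and the spread was wide enough that this does not show equal change. Cpe shifted toward IP relative to Chgb (Chgb minus Cpe -0.40, SE 0.085, adjusted p = 0.000395) and to Scg2 (Scg2 minus Cpe -0.73, SE 0.14, adjusted p = 0.000463). With quantile normalization Cpe 1415949_at (-0.48) lay below Scg2 (-0.26), so that order depends on the scaling. The differences of Cpe from Scg3 (Scg3 minus Cpe -0.51, adjusted p = 0.0553) and Pam (Cpe minus Pam 0.55, adjusted p = 0.0805) did not pass. With the mean of both Cpe probe sets both passed (-0.96, adjusted p = 0.00101, and 1.00, adjusted p = 0.00232).

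Among Chgb, Scg2, Scg3 and Pam, over all 18 arrays, the pair of Chgb and Scg2 passed and the other 5 did not. The differences of Chgb against Scg3 (0.10, SE 0.22, adjusted p = 0.668), Scg2 against Scg3 (-0.23, SE 0.14, adjusted p = 0.143), Scg3 against Pam (0.038, SE 0.17, adjusted p = 0.820), Chgb against Pam (0.14, SE 0.27, adjusted p = 0.638) and Scg2 against Pam (-0.19, SE 0.18, adjusted p = 0.351) did not pass. Without the 4 IP arrays with bright controls 3 of these 5 passed by exact permutation: Scg2 against Scg3 (-0.48, adjusted p = 0.0018), Scg2 against Pam (-0.47, adjusted p = 0.0353) and, with its sign turned, Chgb against Scg3 (-0.34, adjusted p = 0.0366). On the deposited scale Chga shifted toward WB relative to Chgb (-0.75, SE 0.19, adjusted p = 0.00226) and to Scg3 (-0.65, SE 0.16, adjusted p = 0.00164). With quantile normalization, where pairs were not tested, Chgb (-0.82) lay below Chga (-0.41) and Scg2 (-0.26). The order of Chgb to each of these 2 genes therefore depends on the scaling. The pair of Chga and Scg2 passed narrowly (-0.42, adjusted p = 0.0429), and its call was lost in 11 of 18 repeats that left out 1 array and also without the 4 IP arrays with bright controls (-0.25, adjusted p = 0.246). The pair of Chgb and Scg2 (0.33, adjusted p = 0.0318) lost its call in 6 of 18 and without those 4 arrays (0.14, adjusted p = 0.341).

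**Figure D4:**
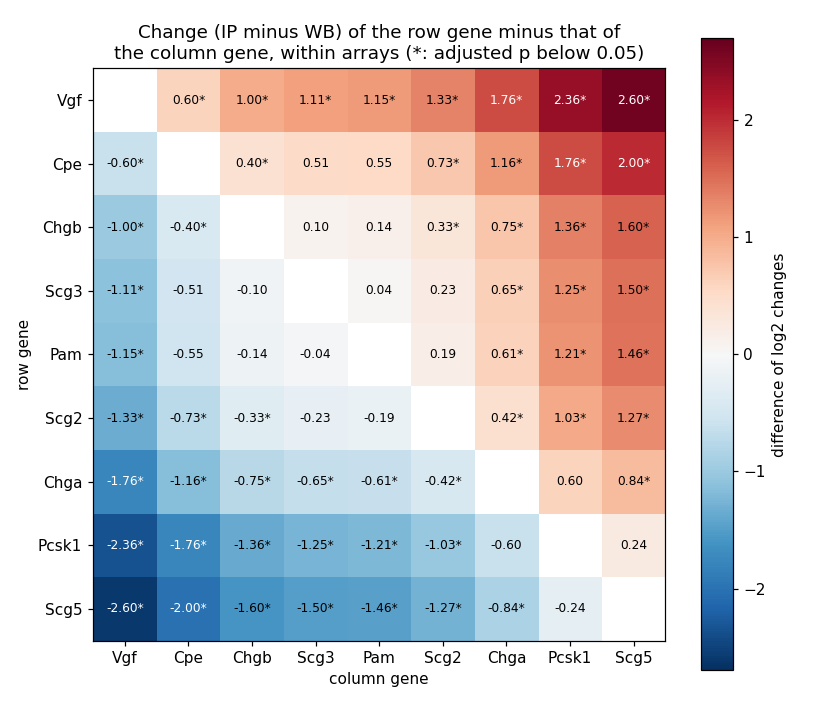
Each cell gives the change (IP minus WB, log2) of the row gene minus that of the column gene, computed within arrays, with an asterisk where the adjusted p over 36 pairs is below 0.05. The row of Vgf is positive against every other gene, and the row of Scg5 negative, from -2.60 against Vgf to -0.24 against Pcsk1.

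The median SD of the members was below that of all probe sets in both groups (0.74 in IP and 0.34 in WB), but Pcsk1 in IP (0.91) and 1439437_x_at of Cpe in WB (0.66) were above it. The members' SD ran from 0.16 to 0.91 in IP with a median of 0.38, and from 0.16 to 0.66 in WB with a median of 0.25. The SD was higher in IP for 7 of the 10 probe sets, and for 87.7% of all probe sets. The median intensity of an array ran from 153 to 203 in IP and from 221 to 267 in WB, and most members were brighter. SDs were not compared at like brightness, so the lower SD is not shown to be particular to the group. For each member the gene with the closest profile over the 18 arrays, after centring each on its own mean, was found among 18184 other genes by the root mean square difference in log2. For Cpe it was Sdha, a succinate dehydrogenase subunit, at 0.098, where the median gene stood at 0.787. For Vgf it was Washc5, of the endosomal WASH complex, at 0.238 (median gene 0.932), and for Scg5 it was Cyfip2, a regulator of actin and translation, at 0.325 (median gene 1.01). Scg2 lay closest to Ube2b at 0.142, Chgb to Atp5a1 at 0.168, Scg3 to Eif3c at 0.189, Pam to Ptges2 at 0.201, Chga to Sugt1 at 0.202 and Pcsk1 to Alms1 at 0.341. No closest gene belonged to the secretory lists described here. Those lists hold only 76 measured genes, so a match was unlikely in advance and its absence says little.

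The rest of the pathway was followed in 5 lists, each gene by its brightest probe set. Over all 18193 genes measured this way 21.7% were higher and 21.7% lower in IP, with a median of 0.00. The balance of all genes moved with the setting. Quantile normalization made 32.8% higher and 16.2% lower, and median centring 39% and 11.4%. The shares were 5.08% and 60% with hybridization controls, 12.5% and 29% with the mean of a gene's probe sets, and 22.8% and 20.3% without the 4 IP arrays with bright controls. Among 7 measured genes for other convertases and the convertase inhibitor proSAAS, 2 rose and 1 fell, with a median of -0.29. Pcsk1n, which encodes proSAAS, an inhibitor of PC1, fell without overlap from a WB median of 1263 to an IP median of 354 (-1.71, SE 0.15, limma adjusted p = 9.35e-10). Its own target Pcsk1 and the PC2 chaperone Scg5 were lower too, as described above. Furin, the convertase of the constitutive pathway, rose from 582 to 1590.3 (1.35, SE 0.18, limma adjusted p = 1.07e-06), but did not pass with hybridization controls (0.40, adjusted p = 0.141).

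Among 8 trimming and modifying enzymes 1 rose and 5 fell, with a median of -0.98. Ctsl, cathepsin L, a lysosomal protease also reported in secretory vesicles, fell 3.63-fold from a WB median of 1731 to an IP median of 406 (limma adjusted p = 2.91e-07), on 1 of its 2 probe sets. Rnpep, aminopeptidase B, fell 3.68-fold from 255 to 74.5 (limma adjusted p = 3.81e-06). Its IP mean of 6.16 (log2) was under the 6.31 of the brightest trpn control, a bacterial transcript used as a dim control, so its fold depends in part on the added 16. Cpd, a carboxypeptidase of the trans-Golgi network related to Cpe, rose 2.01-fold on its brightest probe set (limma adjusted p = 6.57e-06), but it did not pass with hybridization controls (0.064). Of 7 probe sets for Cpd 3 were lower, and the average of the 7 fell (-0.79).

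In the list of vesicle membrane, assembly and release 8 of 20 genes rose and 6 fell, with a median of 0.29. Cadps and Cadps2, both priming factors for dense-core vesicle release, rose 3.03-fold and 2.62-fold. The intensity of Cadps had medians of 2199.9 in WB and 6461 in IP (1.60, SE 0.11, limma adjusted p = 3.29e-11), and that of Cadps2 2349.9 and 6397 (1.39, SE 0.13, limma adjusted p = 3.98e-09). Each has 1 probe set, did not overlap between the groups, and passed as higher under every scaling tried, down to 0.66 and 0.45 with hybridization controls. Syt7, a calcium sensor of vesicle fusion, rose 2.53-fold on its brightest probe set (limma adjusted p = 2.29e-09), but 2 of its 4 probe sets rose, 2 fell and their mean did not pass (-0.074). Resp18, a dense-core vesicle protein of endocrine cells and neurons, fell 2.96-fold from 1365 to 519.7 (limma adjusted p = 9.13e-08). When probe sets of a gene were averaged 3 of the 20 were higher and 8 lower, and with hybridization controls 3 were higher and 9 lower. The balance of all genes turned the same way under both settings.

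Among 13 peptidases that degrade peptides 2 rose and 3 fell, with a median of 0.10. Ece1, endothelin-converting enzyme, fell 3.04-fold (limma adjusted p = 1.18e-06), with all 3 of its probe sets lower. Among 28 peptide precursors, the substrates of the pathway, 8 rose and 10 fell, with a median of -0.22. Adcyap1, the precursor of PACAP, rose 2.99-fold on 1 of its 2 probe sets (limma adjusted p = 1.31e-07), and Cck, the cholecystokinin precursor, fell 2.01-fold (limma adjusted p = 0.000102). Crh, the precursor of corticotropin-releasing hormone, was higher (2.30) and Pmch, that of melanin-concentrating hormone, lower (-1.15), as limma adjusted p-values of 1.43e-10 and 4.43e-05 show.

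**Figure D5:**
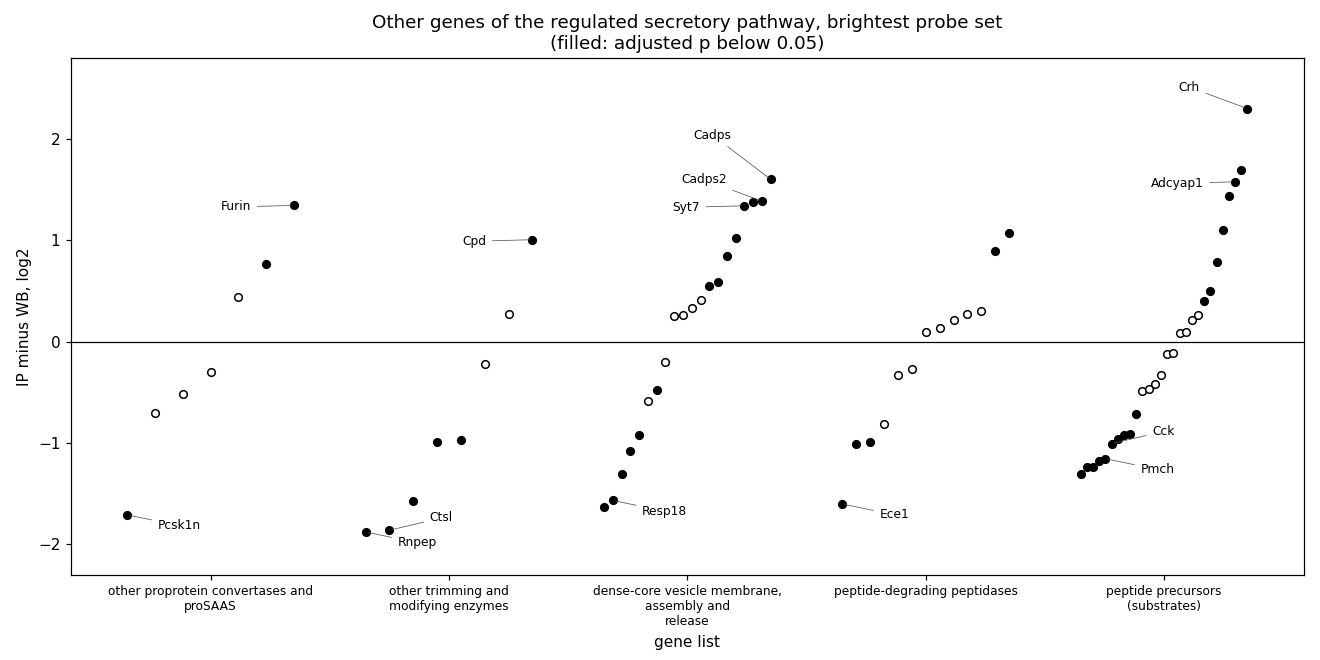
Each point is 1 gene of the 5 lists, placed by IP minus WB in log2 of its brightest probe set, filled where the adjusted p is below 0.05, with genes that changed at least 2-fold without overlap named up to 3 a direction. Each list holds genes on both sides of 0, from Rnpep at -1.88 to Crh at 2.30.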

How the data were processed

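The deposited values are linear intensities per probe set from MAS5. The tool is named without a version, per the submitters' processing notes. The mean of each array trimmed by 2% at both ends was about 500. Amplification started from 5 ng of RNA, per the labels' protocols. Depth has no meaning here, and the number of arrays limits precision. Groups and replicate numbers were taken from the sample titles.

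Here 16 was added and log2 taken, which makes folds of dim probe sets too small. Without a brightness filter, all 10 member probe sets were tested. Tests did not include the 64 array controls. limma 3.58.1 in R 4.3.3 was used with an intensity trend and Benjamini-Hochberg adjustment over 45037 probe sets, of which 34945 had 1 gene symbol, 932 several and 9160 none listed. Symbols of all 10 member probe sets equalled those of the reference gene table by Entrez ID. Exact permutation tests were run in Python 3.11.15. A simulation for the IP and WB comparison (45037 probe sets) left 44837 unchanged. There limma recovered 3 of 50 changes of 0.5, 15 of 50 of 1 and 50 of 50 of 2 (log2). It made 13 false calls among the 44837. On the measured arrays 45% of probe sets were called, a far larger share than was changed in the simulation. The simulated counts therefore do not give the power or the false calls of the tests reported here. The members and lists were chosen with earlier results of these data known. Genes named from each list were those past adjusted p 0.05, at least 2-fold changed and without overlap, up to 3 a direction. Alternatives were pseudocounts of 1 and 64, 3 scalings, 2 brightness filters, no trend, array weights, a replicate block, leaving out each array, and the mean over a gene's probe sets. Leaving out 4 IP arrays together was chosen after seeing the data.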

Additional observations from a re-analysis of the deposited data

How the results depend on the processing

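The differences of the 10 member probe sets kept their direction and side of the threshold in all 180 fits that left out 1 array, with pseudocounts of 1 and 64, both brightness filters, no intensity trend, array weights and the replicate block. Scaling turned signs. With quantile normalization Chgb was at -0.82, Scg3 at -0.19 and Cpe 1415949_at at -0.48. With hybridization controls Chgb was at -0.72, Scg3 at -0.82, Cpe 1415949_at at -0.31 and Pam at -0.86. With median centring Scg2 was at 0.32. The count of members higher, 3 on the deposited scale, was 6 with median centring and 0 with hybridization controls, and the count lower, also 3, was 6 with quantile normalization and 8 with hybridization controls. Without the 4 IP arrays with bright controls these counts were 4 and 3, against 15% and 29% of all probe sets.

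Pairs past the threshold numbered 25 to 30 when 1 array was left out and 29 without the 4 arrays, against 27. With 1 array left out Chgb against Scg3 ranged from -0.035 (without IP replicate 2) to 0.19, and Scg3 against Pam from -0.040 to 0.12, below 0 without IP replicate 3, 5 or 8 or WB replicate 9. Neither passed the test in any of these. Without the 4 arrays Chgb against Scg3 was -0.34 (adjusted p = 0.0366 by exact permutation), Chgb against Pam -0.33 and Scg3 against Cpe 0.0077. The difference between the Cpe probe sets ranged from 0.72 to 1.03 without single arrays, and was 1.05 and 0.59 with pseudocounts of 1 and 64.

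With hybridization controls 5.08% of all genes were higher and 60% lower. There the other convertases gave 0 higher and 4 lower, and trimming enzymes 0 higher and 6 lower. Vesicle genes gave 3 higher and 9 lower, peptidases 0 higher and 9 lower, and precursors 3 higher and 18 lower. With the mean over probe sets (12.5% of all genes higher, 29% lower) 2 convertases were higher and 2 lower. Trimming enzymes gave 0 higher and 7 lower, vesicle genes 3 higher and 8 lower, and peptidases 1 higher and 5 lower. Quantile normalization (32.8% higher, 16.2% lower) gave 5 peptidases higher and 2 lower, and 8 precursors higher and 3 lower. Median centring (39% higher, 11.4% lower) gave 1 trimming enzyme higher and 3 lower, and 12 vesicle genes higher and 3 lower. It also gave 5 peptidases higher and 2 lower, and 9 precursors higher and 3 lower. Without the 4 arrays (22.8% higher, 20.3% lower) 3 convertases were higher and 2 lower. The cause of these shifts was not tested.

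Same-numbered IP and WB arrays had deviations that correlated between -0.05 and 0.08, none of the 9 pairs over 0.1, so the numbers were not taken to pair samples. The median correlation was 0.020 for same-numbered pairs and -0.003 for other pairs, and 4 of 18 arrays correlated best with their own number. The labels do not state whether equal numbers mark a shared origin, and the tests of gene pairs were not run with a replicate block. With the replicate block 3 members were higher and 3 lower, as without it.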
